A study of Homo sapiens with 24 samples.

Results

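To describe the chromatin of TGFβ-treated control cells, peaks of H3K4me3, H3K27ac and H3K27me3 were set against each other in PANC-1, an established human line of pancreatic ductal carcinoma cells. The cells had received a control siRNA (siControl) and TGFβ at 10 ng/ml for 48 h (siControl+TGFβ). Of the 24 samples of the series, 18 came with a peak list, and 6 of these lists are siControl+TGFβ, 2 libraries for each mark. Cells with the same control siRNA and no TGFβ (siControl, 6 lists) and cells with an siRNA against PHF13 and the same TGFβ treatment (siPHF13+TGFβ, 6 lists) are used only for comparison. Libraries of a group are numbered in the labels, which do not say whether they are separate cultures, so every p-value measures the spread between these libraries only.

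A mark was called present at a transcription start site (TSS) when each of its 2 libraries had a peak over at least 1 bp within 1 kb. For each of 20162 protein-coding genes 1 TSS was used, so that every gene falls into 1 of 8 combinations of marks. Away from genes, a region was called distal when the whole of it lay over 5 kb from every annotated TSS.

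Inside the lists, the peak names of the 6 siControl+TGFβ lists carry the tag 3AT. The tag NCT, which the study uses for control cells with TGFβ, stands in the 6 lists labelled siPHF13+TGFβ. Groups were taken from the labels, and counts from the lists labelled siPHF13+TGFβ are given beside the main ones. The siControl+TGFβ lists held 39202 and 36308 H3K4me3 peaks, 36104 and 27110 H3K27ac peaks and 118061 and 111490 H3K27me3 peaks (replicates 1 and 2). The sequencing depth is unknown from peak lists. PHF13 itself, on chromosome 1 with its TSS at 6673791, had H3K4me3 peaks over 1587 and 1592 bp and H3K27ac peaks over 1710 and 1535 bp of its 2001 bp window in siControl+TGFβ.

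H3K4me3 is laid down at promoters by SET1 and MLL complexes, many of which are drawn to unmethylated CpG-rich DNA. H3K27ac is made by the acetyltransferases p300 and CBP at active promoters and enhancers. H3K27me3 is made by Polycomb repressive complex PRC2 and is found over silenced developmental genes. A given H3K27 residue can carry an acetyl or a methyl group and not both, whereas H3K4me3 and H3K27me3 occur together at promoters called bivalent. An enhancer is usually recognised by H3K27ac without H3K4me3. Peaks from a population of cells do not say whether marks over the same bases sat on the same molecule.

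The CpG content of the DNA differed between combinations, so a stretch of hg19 sequence (GRCh37 assembly) is shown for a gene or region of each. The promoters are the 200 bp upstream of the TSS, 5′ to 3′ on the strand of the gene, of the gene with the most covered length in its combination whose upstream stretch holds no annotated exon. They are CCN1 for H3K4me3 with H3K27ac (chr1:86046244-86046443, plus strand), DLL1 for H3K4me3 with H3K27me3 (chr6:170600167-170600366, minus strand) and CFC1 for H3K27me3 only (chr2:131357149-131357348, minus strand). CFC1 has a near-identical neighbour, CFC1B, between which reads may not be told apart. The distal stretches lie around the H3K27ac summit of replicate 1, on the plus strand, in an intron of HIPK2 (chr7:139366632-139366831, no H3K4me3) and in an intron of ERGIC1 (chr5:172296029-172296228, with H3K4me3). Capitals mark CpG dinucleotides.
CCN1: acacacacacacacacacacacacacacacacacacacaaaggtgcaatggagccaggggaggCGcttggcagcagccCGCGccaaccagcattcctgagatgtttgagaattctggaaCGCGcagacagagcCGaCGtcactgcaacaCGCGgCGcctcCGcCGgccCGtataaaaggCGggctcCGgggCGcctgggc
DLL1: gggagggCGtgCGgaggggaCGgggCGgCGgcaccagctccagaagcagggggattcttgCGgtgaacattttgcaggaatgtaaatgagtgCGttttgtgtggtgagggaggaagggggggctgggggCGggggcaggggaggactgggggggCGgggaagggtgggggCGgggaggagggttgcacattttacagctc
CFC1: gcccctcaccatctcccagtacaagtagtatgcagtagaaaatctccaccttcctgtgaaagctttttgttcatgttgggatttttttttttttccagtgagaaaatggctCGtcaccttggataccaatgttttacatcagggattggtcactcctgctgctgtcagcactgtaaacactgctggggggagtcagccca
HIPK2 intron: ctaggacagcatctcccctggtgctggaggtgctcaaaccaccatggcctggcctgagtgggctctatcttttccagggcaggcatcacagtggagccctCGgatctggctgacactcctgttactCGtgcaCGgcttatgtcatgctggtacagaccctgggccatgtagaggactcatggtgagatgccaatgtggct
ERGIC1 intron: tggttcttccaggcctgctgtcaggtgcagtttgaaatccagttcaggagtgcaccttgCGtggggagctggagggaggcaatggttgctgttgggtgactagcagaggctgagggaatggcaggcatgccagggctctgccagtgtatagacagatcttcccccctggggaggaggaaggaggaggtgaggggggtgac
CpG dinucleotides numbered 16 in the CCN1 stretch and 10 in the DLL1 stretch, against 1 in CFC1, 3 in the HIPK2 intron and 1 in the ERGIC1 intron.

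At coding TSSs the 3 marks differed in frequency and in how well replicates overlapped. H3K4me3 had a peak at 70.2% and 69.5% of TSSs in replicates 1 and 2, and at 69.3% (13971) in both. H3K27ac had a peak at 57.1% and 51.8%, and at 51.6% (10407) in both. H3K27me3 had a peak at 22.8% and 22.3%, and at 19.8% (3982) in both. Of TSSs with a peak in either library, 98.3% had it in both for H3K4me3, 90.1% for H3K27ac and 78.0% for H3K27me3. The share was 15.4 percentage points lower for H3K27ac than for H3K4me3 and 47.3 points lower for H3K27me3, where the pooled SD between libraries was 2.65 and 0.418 points. Each library of the rarer mark lay below each library of the more frequent one. Each of the 3 pairs of marks gave an exact two-sided permutation p = 0.33 (adjusted 0.33), the smallest that 2 against 2 libraries allow.

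H3K27ac was almost confined to TSSs with H3K4me3, and H3K27me3 was divided. Of the TSSs with H3K27ac, 99.7% also had H3K4me3. Of those with H3K4me3, 74.2% had H3K27ac (80.7% and 74.2% within replicates 1 and 2). H3K27me3 was present at 1.61% of TSSs with H3K27ac (4.68% and 2.58% within replicates), against 39.1% of TSSs without H3K27ac. Of the TSSs with H3K27me3, 58.3% had H3K4me3, where 69.3% of all TSSs did. These are counts over genes, which are not replicates, and no test was made over them.

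The combinations were of very unequal size. H3K4me3 with H3K27ac was found at 10208 TSSs (50.6%), H3K4me3 with H3K27me3 at 2156 (10.7%), H3K27me3 only at 1658 (8.22%) and H3K4me3 only at 1442 (7.15%). All 3 marks were found at 165 TSSs (0.818%), H3K27ac only at 31 (0.154%) and H3K27ac with H3K27me3 at 3 (0.0149%), which were TAF11L9, TAF11L7 and IGLON5. No mark was called at 4499 (22.3%), of which 3648 had no peak in any of the 6 lists. With 1 library per mark, joined by replicate number, the counts were 10894 and 10143 for H3K4me3 with H3K27ac. They were 2089 and 2292 for H3K4me3 with H3K27me3, and 1959 and 1939 for H3K27me3 only. The small classes were less steady. H3K4me3 only had 641 and 1318 TSSs in replicates 1 and 2 and all 3 marks 537 and 263, while the H3K27ac list of replicate 1 was the longer one. Of the 1442 TSSs with H3K4me3 only, 974 had a peak of another mark in 1 of its 2 libraries, and 468 had none.

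**Figure D1:**
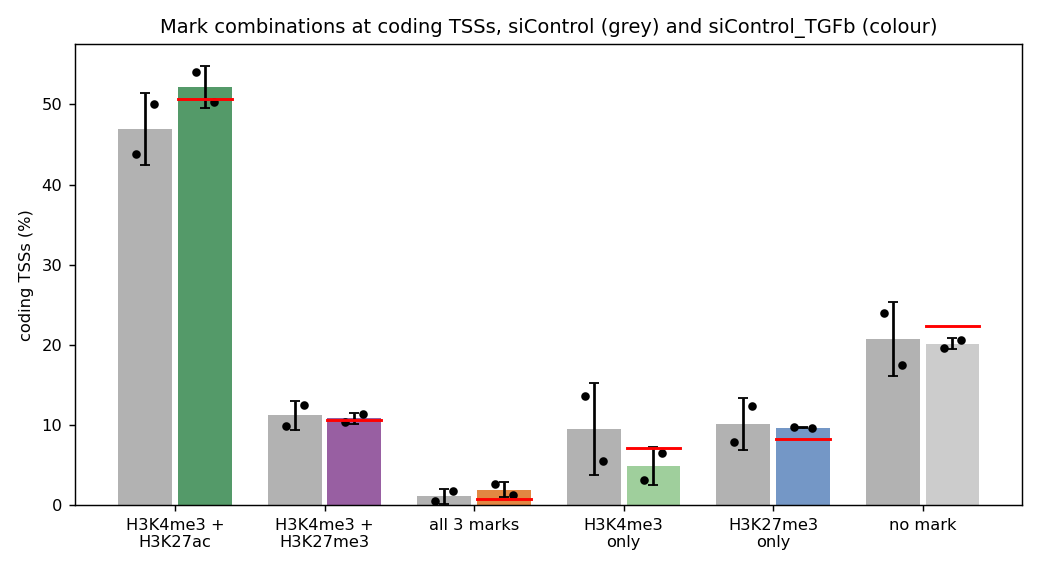
Percent of 20162 coding TSSs (y axis) in each of 6 combinations (x axis), with siControl as the left bar and siControl+TGFβ as the right bar of each pair. Each point joins the libraries of the 3 marks that share a replicate number. Bars are means of the 2 points and error bars their SD, and red lines give the siControl+TGFβ share when both libraries are required. H3K4me3 with H3K27ac stands highest in both groups, and for this combination alone both siControl+TGFβ points (54.0% and 50.3%) lie above both siControl points (43.8% and 50.1%). Over all 8 joinings of libraries across marks, siControl reached 50.9% and siControl+TGFβ fell to 50.3%, so this order depends on the joining.

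It was then asked how these shares stood to cells without TGFβ. Each value joins the libraries of the 3 marks that share a replicate number. H3K4me3 with H3K27ac made up 52.2% ± 2.63 of TSSs per replicate number in siControl+TGFβ and 46.9% ± 4.46 in siControl (SD, n = 2, exact permutation p = 0.33, adjusted over 8 combinations 1). The nearest pair of values, 50.3% and 50.1%, differed little. Over all 8 joinings of libraries across marks, siControl reached 50.9% and siControl+TGFβ fell to 50.3%, so the groups overlapped. The H3K27ac lists of siControl were shorter, with 19413 and 25929 peaks, and with lists cut to equal length the difference of 5.23 points became 2.21 points (exact permutation p = 0.667). Without siControl replicate 1 it was 2.08 points and without siControl replicate 2 8.38 points. H3K4me3 only stood at 4.86% ± 2.37 and 9.55% ± 5.73 (exact permutation p = 0.667), a difference of -4.69 points that was -0.642 without siControl replicate 1 and -8.74 without siControl replicate 2. H3K4me3 with H3K27me3 stood at 10.9% ± 0.712 and 11.2% ± 1.79 (exact permutation p = 1). H3K27me3 only stood at 9.67% ± 0.0701 and 10.2% ± 3.21 (exact permutation p = 1). Gene by gene, 85.1% of the TSSs with H3K4me3 and H3K27ac had the same combination in siControl and 1425 had H3K4me3 only. Of the TSSs with H3K4me3 and H3K27me3, 82.4% (1776) had the same combination in siControl. H3K27ac was present in both siControl+TGFβ libraries and in neither siControl library at 302 TSSs (1.5%). The reverse held at 1 TSS (0.00496%). Of the 302, 45 had H3K27me3 in both siControl libraries. Over all coding TSSs in siControl, 9.75% had H3K27me3 with H3K4me3, 7.64% had it alone and 0.377% had all 3 marks. No excess of H3K27me3 is read from the 45.

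In the lists labelled siPHF13+TGFβ the counts depended on the replicate. Replicate 2 gave 10801 TSSs with H3K4me3 and H3K27ac, 2021 with H3K4me3 and H3K27me3 and 1924 with H3K27me3 only. Replicate 1, with 6004 H3K27ac peaks, gave 3656, 1549 and 1055. H3K4me3 only was found at 8324 TSSs in replicate 1 and 680 in replicate 2. Required in both, the 4 classes held 3663, 1512, 1002 and 8342 TSSs.

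TSSs with H3K4me3 and H3K27ac had the greatest length under H3K4me3 peaks within 5 kb, a span that can take in peaks of neighbouring TSSs. Within 1 kb their medians, 1673.5 and 1647 bp (replicates 1 and 2), were near the 1661 and 1613 bp of TSSs with all 3 marks. Within 5 kb the medians were 2176 and 2133 bp at TSSs with H3K4me3 and H3K27ac. They were 1462.5 and 1362.5 bp at TSSs with H3K4me3 and H3K27me3. The fold enrichment of the peaks over input, a ratio given by the peak caller, was in the other order, with medians of 6.09 and 5.83 at the former and 7.84 and 7.02 at the latter. Coverage lay mostly downstream of the TSS. At 400 bp downstream, 95.9% of these TSSs were under H3K4me3 peaks of both libraries, at the TSS itself 76.1%, and 100 bp upstream 66.5%. H3K27ac had the same dip, with 81.8% at 200 bp downstream and 46.9% at 100 bp upstream.

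**Figure D2:**
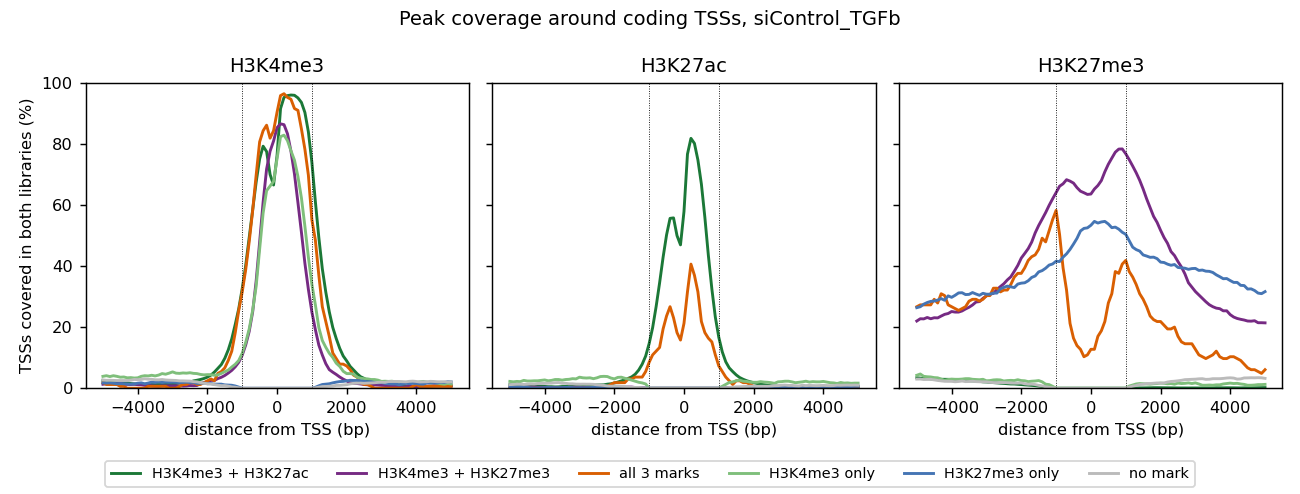
Percent of coding TSSs (y axis) whose base at a given distance from the TSS (x axis, bp, downstream to the right) lies under peaks of both siControl+TGFβ libraries, in 3 panels for H3K4me3, H3K27ac and H3K27me3. Lines are combinations and dotted lines the 1 kb limits of the window that defined them. H3K27me3 covers the TSS at 63.5% of TSSs with H3K4me3 and H3K27me3, and at 12.7% of those with all 3 marks, where it lies to the sides.

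The genes with the greatest covered length in this combination were CCN1, ZFP36, ZNF581, IGF2BP3 and SOX4. CCN1 encodes a matricellular protein and is a target of both TGFβ and YAP signalling, and ZFP36 an RNA-binding protein that promotes mRNA decay. Within 5 kb of the CCN1 TSS, H3K4me3 peaks covered 5144 and 4328 bp and H3K27ac peaks 6044 and 4561 bp. At ZFP36 the values were 4819 and 4787 bp, and 4983 and 4322 bp. None of the 5 had an H3K27me3 peak within 5 kb.

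Genes for the basic machinery of the cell fell into this combination almost whole. It held 77 of 80 ribosomal protein genes, 77 of 78 mitochondrial ribosomal protein genes, 37 of 40 proteasome genes and 39 of 42 genes for H3K4, H3K27 and Polycomb enzymes, where 50.6% of all coding TSSs belonged to it. The exceptions among ribosomal genes were RPL38, with all 3 marks, and RPL10L and RPL3L, with no mark, which are tissue-restricted copies. Among the chromatin enzymes the exceptions were CBX2 and CBX8, subunits of Polycomb repressive complex PRC1, with H3K4me3 and H3K27me3, and BMI1, with H3K27ac only. CBX2 and CBX8 also had H3K27ac in 1 library, and BMI1 had H3K4me3 over 524 and 0 bp of its window. EZH2, the catalytic subunit of PRC2, had H3K4me3 over 2001 bp in both libraries and H3K27ac over 1659 and 1553 bp.

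TGFβ-SMAD target genes were mostly in the same combination. Of 24 listed, 18 (75%, where 50.6% of all coding TSSs did) had H3K4me3 with H3K27ac, among them SMAD7, SKIL, CCN2 and TGFBI. At SMAD7, an inhibitor of the pathway, H3K27ac covered 1665 and 438 bp with TGFβ and, in siControl, 0 and 706 bp, and the libraries overlapped. Of the 18, 6 had H3K4me3 only in siControl, where 1425 of all 10208 TSSs of this combination did. Of the 19 listed targets with H3K27ac, 2 (LTBP2 and IL11) had it in neither siControl library, where 302 of all 10407 TSSs with H3K27ac did. The targets without H3K4me3 and H3K27ac together were BAMBI, NEDD9 and WNT7A (H3K4me3 with H3K27me3), ID2 (H3K4me3 only), BHLHE40 (H3K27ac only) and PTHLH (no mark). ID2 had H3K27ac over 425 and 0 bp, and BHLHE40 had H3K4me3 over 794 and 0 bp, so 1 library decided each of these calls. BAMBI, a decoy receptor that damps TGFβ signalling, had H3K4me3 over 1753 and 1782 bp, H3K27me3 over 2001 bp in both libraries and no H3K27ac peak.

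Among 31 components of TGFβ signalling, 17 (54.8%) had H3K4me3 with H3K27ac, a share near the 50.6% of all coding TSSs. They included the ligands TGFB1 and TGFB2, the receptor TGFBR2 and the signal transducers SMAD2, SMAD3 and SMAD4. TGFBR1 was called H3K4me3 only, but H3K27ac covered 1094 bp in replicate 1 and 0 bp in replicate 2. The ligands BMP2 and BMP7 and the antagonists GREM1 and FST had H3K4me3 with H3K27me3, and BMP4 and NODAL had H3K27me3 only. BMP4 also had H3K4me3 in 1 library.

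Transcription factors of the epithelial-to-mesenchymal transition (EMT) were divided. Of 15, 8 had H3K4me3 with H3K27ac (SNAI1, TWIST2, ZEB1, TCF3, FOXC2, FOXQ1, SOX4 and SOX9) and 4 had H3K4me3 with H3K27me3 (PRRX1, GSC, KLF8 and ETS1). These are 53.3% and 26.7%, where all coding TSSs gave 50.6% and 10.7%. At SNAI1, which encodes the repressor Snail, H3K27ac peaks covered 932 and 779 bp with TGFβ and, in siControl, 229 and 0 bp. At TWIST2 they covered 987 and 522 bp and, in siControl, 0 bp in both libraries. At ZEB1 they covered 2001 and 1511 bp and, in siControl, 1378 and 1676 bp, so that the libraries of both groups overlapped. ZEB2 differed from its paralog ZEB1, with H3K27me3 over 2001 bp in both libraries and no other peak. TWIST1 had no peak within 1 kb in any of the 6 lists.

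H3K4me3 with H3K27me3 is the bivalent combination. The genes with the greatest covered length were DLL1, a Notch ligand, EMX1 and LHX9, homeobox factors, SLC30A3, a zinc transporter, and NGFR, a neurotrophin receptor. At each of the 5, H3K27me3 covered all 10001 bp within 5 kb of the TSS in both libraries. At DLL1, H3K4me3 covered 3050 and 2605 bp of the same span, and there was no H3K27ac peak. Over the 2156 TSSs, H3K27me3 peaks covered medians of 4966.5 and 5325 bp within 5 kb. The marks shared at least 1 bp in both libraries at 2000 of these TSSs (92.8%), and at the median TSS 100% of the H3K4me3-covered bases were also under H3K27me3.

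Several gene families had a higher share of bivalent TSSs than the 10.7% of all coding TSSs. The combination held 12 of 19 WNT ligands, 47 of 94 potassium channel genes, 22 of 44 collagen genes and 25 of 69 non-HOX homeobox genes. WNT3A had H3K4me3 over 1261 and 1133 bp and H3K27me3 over 2001 bp in both libraries. Of 23 factors of the pancreatic lineage, 11 were bivalent, among them GATA6, NEUROG3, NKX2-2 and ONECUT1, and 5 had H3K27me3 only, among them PTF1A, HNF4A, NEUROD1 and PAX4. Only FOXA2 of these 23 had H3K4me3 with H3K27ac. PDX1, the master regulator of pancreas formation, had H3K4me3 over 997 and 1047 bp and no peak of another mark.

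Epithelial genes were split between active and bivalent TSSs. Of 30, 12 (40%, against 50.6% of all coding TSSs) had H3K4me3 with H3K27ac, among them the keratins KRT8, KRT18 and KRT19 and the tight junction genes CLDN4, CLDN7, OCLN and TJP1. Another 10 (33.3%, against 10.7%) were bivalent, namely CDH1, EPCAM, DSP, PKP2, DSC2, DSG2, OVOL1, OVOL2, ST14 and SPINT1. CDH1, which encodes E-cadherin, had H3K4me3 over 1269 and 1061 bp, H3K27me3 over 1443 and 1606 bp and no H3K27ac peak. In siControl its H3K27me3 peaks covered 773 and 834 bp. At EPCAM, a marker of epithelial cells, H3K27me3 covered 1793 and 1663 bp with TGFβ and, in siControl, 72 and 650 bp. At DSP, which encodes desmoplakin, it covered 2001 bp in all 4 libraries of these groups. Over the genome, H3K27me3 peaks covered 105 and 293 Mb in siControl and 167 and 191 Mb in siControl+TGFβ. The lengths at single genes were not corrected for that. All 10 were bivalent by the same rule in siControl.

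Mesenchymal and matrix genes were spread over more combinations. Of 34, 14 (41.2%, against 50.6% of all coding TSSs) had H3K4me3 with H3K27ac, including CDH2, MMP2, MMP14, ITGA2, ITGB1 and TPM1. At MMP2, which encodes a gelatinase, H3K27ac covered 1143 and 522 bp with TGFβ and, in siControl, 162 and 0 bp. At CDH2, which encodes N-cadherin, it covered 1551 and 380 bp, and 0 and 354 bp in siControl. The H3K27ac lists of siControl were shorter over the genome, and these lengths were not corrected for that. Of the 34 genes, 0 had H3K27ac in both siControl+TGFβ libraries and in neither siControl library. Bivalent TSSs included FN1, which encodes fibronectin, with H3K4me3 over 1555 and 1701 bp and H3K27me3 over 2001 bp in both libraries. ACTA2, TAGLN, SPARC, COL1A2, COL3A1 and POSTN had no mark. Among examples of ChIP signal chosen by the study, PAPLN and PCDHB8 were bivalent, and MMP17 had H3K4me3 with 91 and 0 bp of H3K27me3.

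At most TSSs with all 3 marks the peaks of H3K27ac and H3K27me3 lay side by side. Of the 165, 60 had at least 1 bp under both H3K27ac and H3K27me3 within 1 kb in replicate 1, 38 in replicate 2 and 35 (21.2%) in both. H3K4me3 and H3K27ac shared bases at 162 of them, and H3K4me3 and H3K27me3 at 122. H3K27me3 peaks of both libraries covered 12.7% of these TSSs at the start site, 58.2% at 1 kb upstream and 41.8% at 1 kb downstream. The length under H3K27ac peaks was small, with medians of 1013 and 366 bp within 5 kb, against 1590 and 1146 bp at TSSs with H3K4me3 and H3K27ac. The class depended on the window, with 56 TSSs at 500 bp and 421 at 2 kb.

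The leading genes with all 3 marks were THBD, TRIM28, COL1A1, PDGFA and RAI14. At COL1A1, which encodes a chain of type I collagen, H3K4me3 covered 832 and 851 bp, H3K27ac 269 and 237 bp and H3K27me3 1618 and 1451 bp of the window. It had all 3 marks in siControl too. At THBD, which encodes the anticoagulant thrombomodulin, H3K27ac covered 1839 and 587 bp with TGFβ and, in siControl, 0 and 560 bp. These lengths were not corrected for the shorter H3K27ac lists of siControl. COL6A1, COL13A1, COL27A1, HOXB13, BARX2, FOXC1 and FOXD2 were also in this class. Of the 165, 77 were bivalent in siControl, 36 had all 3 marks, 27 had H3K4me3 only and 25 had H3K4me3 with H3K27ac.

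H3K4me3 only was found at 14 of 53 clustered protocadherin genes and 8 of 39 HOX genes, where 7.15% of all coding TSSs had it. Of these 8, HOXA5, HOXB5, HOXC6, HOXC8, HOXC9 and HOXD1 had H3K27ac in 1 library, so 1 library decided their calls. HOXA2 and HOXB8 had it in neither. The leading genes with H3K4me3 only were HSD17B8, CDK6, an overlapping pair on chromosome 8 that includes ADHFE1, and MMP17. Each of them had H3K27ac peaks within 5 kb but not within 1 kb. At CDK6, which encodes a cyclin-dependent kinase, H3K27ac covered 2631 and 1143 bp within 5 kb and 0 bp within 1 kb. At MMP17, which encodes a membrane-type metalloproteinase, it covered 2415 and 1739 bp, and 0 bp. The length under H3K4me3 peaks at TSSs with H3K4me3 only was intermediate, with medians of 1618.5 and 1540 bp within 5 kb.

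H3K27ac only was rare and included genes with H3K4me3 farther off. IRF2BP2, ZMYND8, PTPRH, SSC5D and B3GALT4 led the 31, and each of these 5 had H3K4me3 within 5 kb in both libraries. At VIM, which encodes the mesenchymal filament protein vimentin, H3K27ac covered 1580 and 1107 bp of the window. H3K4me3 covered 0 bp of it in all 6 lists of that mark. Within 5 kb of the VIM TSS, H3K4me3 covered 2503 and 1421 bp in siControl+TGFβ. VIM was H3K27ac only in siControl and in siPHF13+TGFβ as well. A TSS with peaks on its flanks and none close by is thus read as unmarked by a 1 kb window, and 607 of the 4499 TSSs with no mark had H3K4me3 within 5 kb in both libraries.

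H3K27me3 only was found at single TSSs and in runs of neighbours. The leading genes were CNTN2, a neural adhesion molecule, SLC26A9, an anion transporter, GPAT2, CFC1 and ALG1L2. Each had H3K27me3 over 10001 bp in both libraries. CNTN2 also had H3K4me3 over 338 and 0 bp of its 1 kb window, so 1 library decided its call. The longest run of consecutive coding TSSs was 16, from KRT6B to KRT78 in the type II keratin cluster on chromosome 12 (52845930 to 53242778). Runs of 11, from HAMP to GAPDHS on chromosome 19, and of 10, from LELP1 to S100A7 in the epidermal differentiation region of chromosome 1, followed. Of 55 keratin genes, 27 had H3K27me3 only, 24 no mark and 4 (KRT8, KRT18, KRT19 and KRT80) H3K4me3 with H3K27ac. Of the 1658 TSSs, 71.6% had the same combination in siControl and 464 had no mark there.

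The markers of other cell types were without H3K27ac. Of 11 acinar, 12 islet, 12 blood and 8 endothelial marker genes, 0 had H3K27ac in both libraries, where 51.6% of all coding TSSs did. No mark was called at 9 of the acinar, 4 of the islet, 7 of the blood and 5 of the endothelial genes, where 22.3% of all coding TSSs had none. PRSS1, a trypsinogen gene with near-identical copies, was 1 of only 2 acinar genes with H3K27me3, which covered 2001 bp in both libraries. At INS it covered 2001 and 1273 bp, and 5 of the 12 islet genes had H3K27me3 only, where 8.22% of all coding TSSs did. Of 10 ductal markers, 5 had H3K4me3 with H3K27ac (KRT8, KRT18, KRT19, SOX9 and MUC1), a share of 50% that is near the 50.6% of all coding TSSs, and KRT7 had no mark.

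Genes with no mark lay in long runs. The longest was 58 TSSs on chromosome 11 (49973943 to 56756389), from OR4C13 to OR5AK2, which both encode olfactory receptors. Of 399 olfactory receptor genes, 356 had no mark and 39 had H3K27me3 only. Active TSSs also came in runs, the longest of 19 TSSs, from RPP21 to VARS2 on chromosome 6 and from VPS37B to ATP6V0A2 on chromosome 12. Of bivalent TSSs, 69.7% had no coding neighbour of the same combination. This was so for 14.9% of TSSs with H3K4me3 and H3K27ac, 50% of those with H3K27me3 only and 40.4% of those with no mark. These shares depend on the size of a class, which was 10.7%, 50.6%, 8.22% and 22.3% of all coding TSSs in the same order. No expectation was computed, so the classes are not ranked by clustering. The longest bivalent run was 6.

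**Figure D3:**
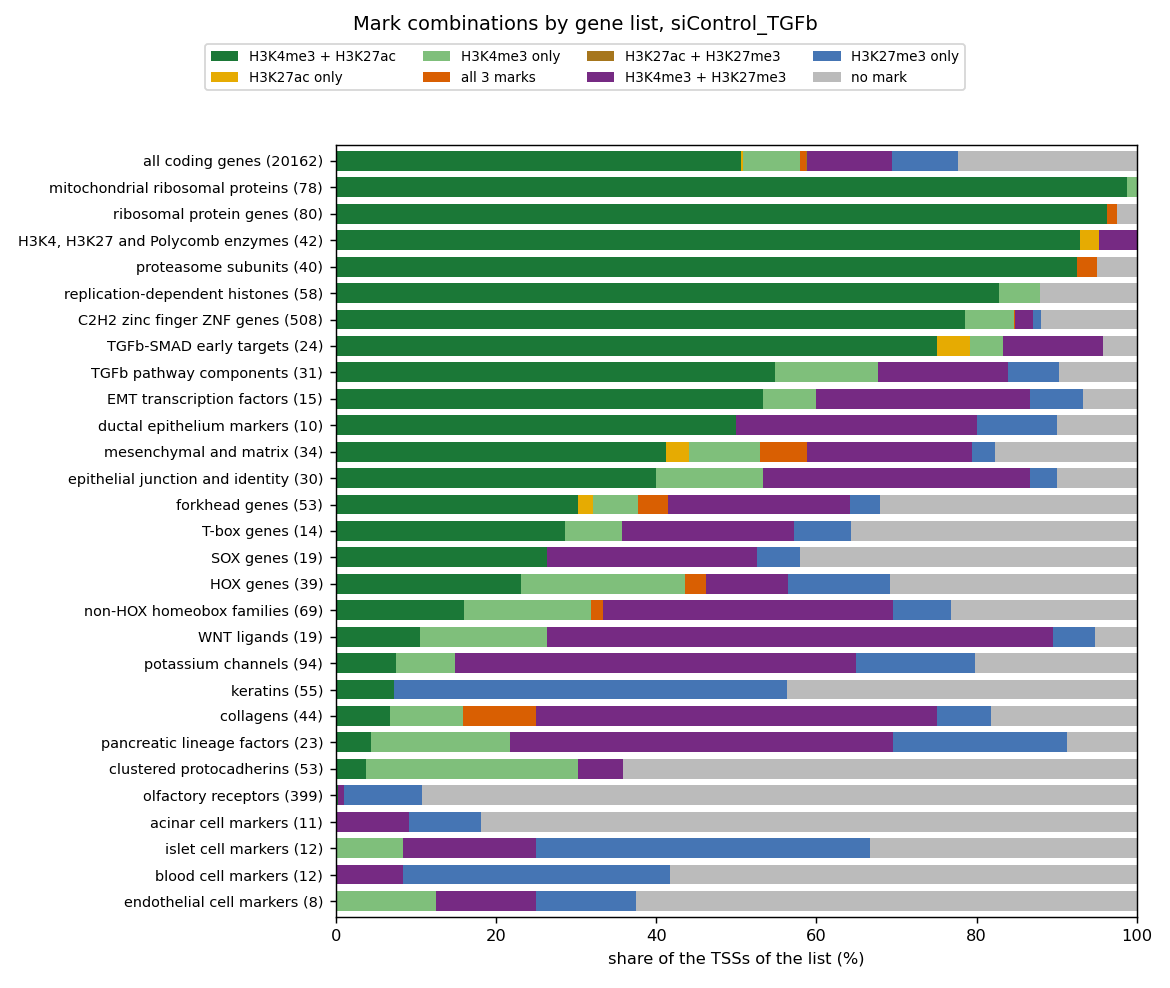
Share of the TSSs of each list (x axis, percent) that falls into each combination of marks (colours) in siControl+TGFβ, for all 20162 coding genes and 28 gene lists (y axis, number of genes in brackets), ordered by the share with H3K4me3 and H3K27ac. The lists run from mitochondrial ribosomal proteins, with 77 of 78 TSSs under H3K4me3 and H3K27ac, to lists of acinar, islet, blood and endothelial markers with 0.

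The combinations separated by base composition, a measure that did not enter their definition. Within 500 bp of the TSS, the median CpG content relative to that expected from base composition was 0.798 with H3K4me3 and H3K27ac, 0.763 at bivalent TSSs and 0.718 with H3K4me3 only. It was 0.259 with H3K27me3 only and 0.258 with no mark, against 0.723 over all TSSs. Bivalent TSSs had the higher GC content of the main classes, with a median of 66.9%, against 63.6% with H3K4me3 and H3K27ac, 53.4% with H3K27me3 only and 49.9% with no mark. These are descriptions over genes, without a test.

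Motifs of core promoters were also counted. In the window from 250 bp upstream to 50 bp downstream, GGGCGG, the GC box bound by SP factors, was found on either strand at 60.9% of all TSSs. It was found at 76.5% with H3K4me3 and H3K27ac, 79.3% of bivalent TSSs, 28.2% with H3K27me3 only and 24.4% with no mark. TATAAA, the TATA box, was found at 4.52%, 6.82%, 18.2% and 21.1% in the same order of classes, and 9.80% over all TSSs. CCAAT was found at 37.1%, 29.4%, 37.6% and 36.7%, and 35.9% over all. A match is a run of letters and does not show that a factor binds.

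Over 20 bins of equal size by GC content, H3K4me3 was present at 5.38% of TSSs in the lowest bin and 95.4% in the highest. H3K27me3 did not follow that course. It was present at 27.2% of TSSs in the third bin, with a median GC content of 46.6%, at 15.8% in the eighth, with 57.8%, and at 25.6% in the highest, with 77.1%. In the third bin 23.3% of TSSs had H3K27me3 only and 3.66% were bivalent, and in the highest bin 1.58% and 21.7%. Recovery of GC-rich and GC-poor DNA in a library can differ, and its part in these curves was not tested. Replicates 1 and 2 gave 32.6% and 32.8% in the third bin, 19.7% and 17.0% in the eighth, and 28.9% and 26.3% in the highest.

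**Figure D4:**
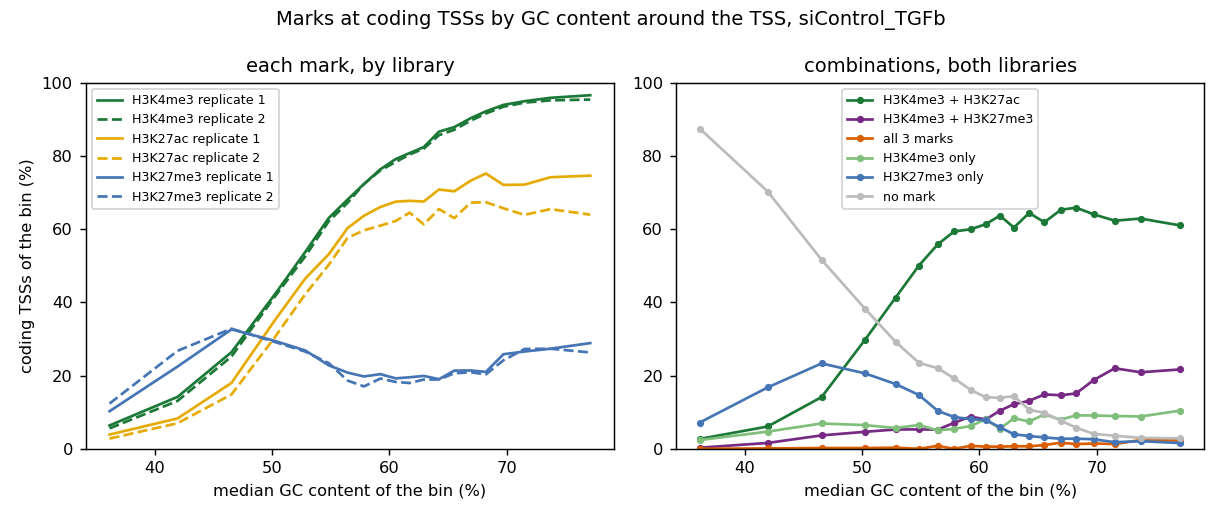
Percent of coding TSSs (y axis) with each mark in each siControl+TGFβ library (left) and in each combination in both libraries (right), over 20 bins of TSSs by GC content within 500 bp (x axis, median of the bin in percent). The share with no mark goes from 87.5% in the lowest bin to 2.86% in the highest, and that of bivalent TSSs from 0.299% to 21.7%.

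Away from TSSs the order of the marks was different. H3K27me3 formed 32557 distal regions, H3K4me3 8565 and H3K27ac 6215, which were 58.1%, 27.4% and 28.8% of the regions of each mark. Of the distal H3K27me3 regions, 1029 were at least 10 kb wide. Bases under H3K27me3 alone in both libraries came to 66.4 Mb of distal sequence, bases under H3K4me3 alone to 3.17 Mb and under H3K27ac alone to 2.60 Mb. H3K4me3 and H3K27ac shared 1.69 Mb, H3K4me3 and H3K27me3 0.407 Mb, and H3K27ac and H3K27me3 without H3K4me3 0.0569 Mb.

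Of the 6215 distal H3K27ac regions, 2465 (39.7%) had no H3K4me3 region over them and 3750 (60.3%) did. Those with H3K4me3 were wider, with a median of 1222 bp against 785 bp. Within 2 Mb of an assembly gap of at least 1 Mb lay 14.1% of those with H3K4me3 and 7.51% of those without. For the regions without H3K4me3, 60.1% lay in a gene and the median distance to the nearest coding TSS was 61749 bp. The nearest coding TSS had H3K4me3 and H3K27ac for 65.6% of them, and for 65.3% of those with H3K4me3, where 50.6% of all coding TSSs did. For distal H3K27me3 regions without another mark (31435, 96.6% of distal H3K27me3 regions) it had H3K4me3 and H3K27ac for 33.9%, was bivalent for 28.4% and had H3K27me3 only for 16.5%. Shares over all coding TSSs weigh each TSS alike, whatever the length of distal sequence nearest to it. They are therefore not an expectation for distal regions, and no excess is read from them.

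**Figure D5:**
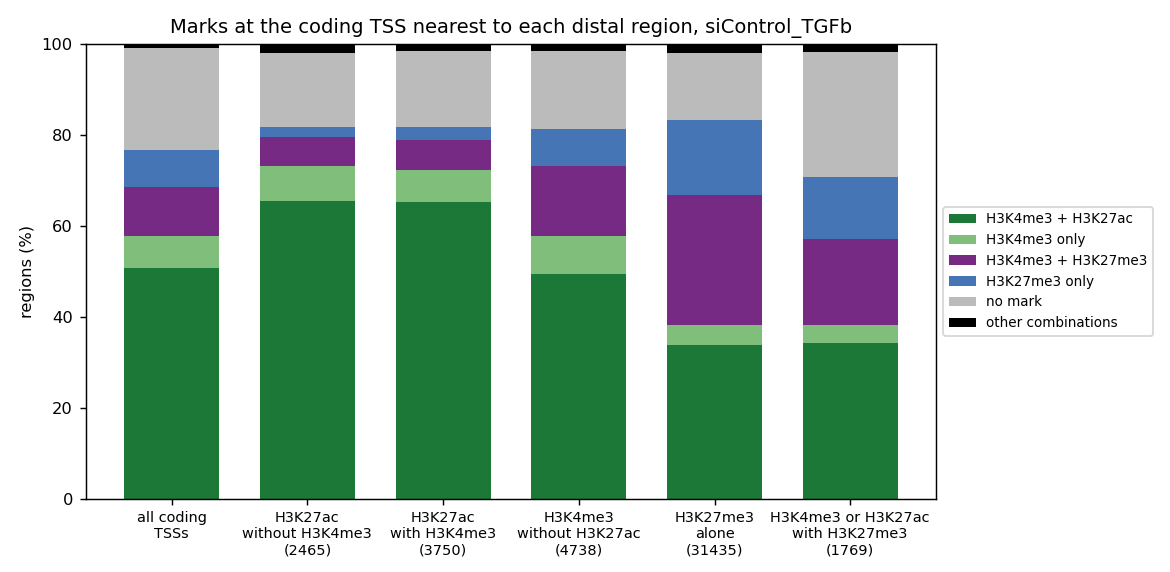
Share of distal regions (y axis, percent) by the combination of marks at the nearest coding TSS (colours), for 5 classes of distal region in siControl+TGFβ (x axis, number of regions in brackets) and, at the left, for all coding TSSs. Distal H3K27ac regions lie nearest to TSSs with H3K4me3 and H3K27ac in 65.6% and 65.3%, and distal H3K27me3 regions nearest to bivalent TSSs in 28.4%. The bar for all coding TSSs counts each TSS once and is not an expectation for distal regions.

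The widest distal H3K27ac region without H3K4me3 lay in an intron of HIPK2, which encodes a stress-responsive kinase, on chromosome 7 (139364118 to 139367922), 109875 bp from its TSS. H3K27ac peaks covered 3609 and 3377 bp of it. The region was called without H3K4me3, although replicate 1 had 560 bp of it. The widest with H3K4me3 was on chromosome 10 (17007479 to 17011647), nearest to RSU1, with 4022 and 3769 bp of H3K27ac. The next, in the ERGIC1 intron printed above (172294713 to 172298446), had 3734 and 3244 bp. No comparison with siControl is made in these regions, since their choice and bounds came from the siControl+TGFβ peaks.

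Some genes were nearest, within 100 kb, to many distal H3K27ac regions. NPAS2, a circadian transcription factor, had 15, MBNL2, a splicing regulator, 11, and TRIO, a guanine nucleotide exchange factor, and SMAD3, the effector of TGFβ receptors, 9 each. These 4 had H3K4me3 and H3K27ac at the TSS. OR4C46 had 12 and H2BC12L 9, and neither had a mark at the TSS. Whether reads misplaced from repeats raise any of these counts was not tested.

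Distal summits of the 3 classes with H3K27ac or H3K4me3 held AP-1 motifs at like shares and GC boxes at unlike ones. In 300 bp around the H3K27ac summit of regions without H3K4me3, TGANTCA, the AP-1 motif, was found at 11.6% and 15.3% (replicates 1 and 2), where it was found in 9.31% of 41437 evenly spaced distal windows of that length. The shares were 11.6% and 14.1% at H3K27ac summits with H3K4me3, and 12.2% in both replicates at H3K4me3 summits without H3K27ac. The GC box GGGCGG was found at 4.02% and 3.45% of these summits, at 10.2% and 10.4% of H3K27ac summits with H3K4me3 and at 21.3% and 20.7% of H3K4me3 summits without H3K27ac, against 2.96% of the evenly spaced windows. The median GC content was 43.3%, 45.0% and 49.7% in the same order, and 39% in the windows. GC content differs with these shares, and motifs were not matched for it.

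Distal H3K4me3 without H3K27ac was found at 4738 regions, 55.3% of distal H3K4me3 regions. The widest were an intronic region on chromosome 3 (75690021 to 75692443), nearest to FRG2C, a member of a duplicated gene family, and, between genes, one on chromosome 10 (102414271 to 102416595), at 88744 bp from PAX2, a paired-box factor of kidney development. The PAX2 region had H3K4me3 over 2325 and 1880 bp and H3K27me3 over 2325 bp in both libraries. Of the 4738 regions, 21.9% had H3K27me3, against 14.9% of H3K27ac regions with H3K4me3 and 6.98% of those without.

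The widest distal H3K27me3 regions without another mark each touched an annotated exon. They were on chromosome 11 (117392403 to 117474801, 82399 bp, nearest to DSCAML1, a neural adhesion gene), chromosome 10 (72784747 to 72848986, 64240 bp, nearest to UNC5B, a netrin receptor) and chromosome 19 (34185437 to 34244248, 58812 bp, nearest to KCTD15). The TSSs of DSCAML1 and UNC5B were bivalent, and that of KCTD15 had all 3 marks. In the DSCAML1 region H3K27me3 covered 81183 and 73576 bp.

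H3K4me3 or H3K27ac together with H3K27me3 was found at 1769 distal regions (16.2% of 10936). Of these, 710 (40.1%) lay within 2 Mb of an assembly gap of at least 1 Mb, where centromeric repeats adjoin. That share was 7.51% for H3K27ac regions without H3K4me3 and 14.1% for those with it. It was 4.18% for H3K4me3 regions without H3K27ac and 4.10% for H3K27me3 regions without another mark. The widest of the 1769 was on chromosome 6 (58776258 to 58779467), 1593830 bp from the nearest coding TSS. It had 3138 and 3104 bp of H3K4me3, 3210 and 3103 bp of H3K27ac and 472 and 529 bp of H3K27me3. Without the regions near such gaps 1059 remained. Reads from repeats that the assembly lacks may be placed there, and the part of this in the overlap was not tested.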

How the data were processed

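Chromatin was immunoprecipitated from PANC-1 cells and sequenced by the authors, who used Trim Galore 0.4.1, Bowtie2 2.4.1, Picard and MACS2 2.2.7.1 with deepTools 3.5.0 (submitters' processing notes) and called peaks in each library against input on hg19. The deposited peak lists give a score, a fold enrichment over input (a ratio), −log10 of p and q, and, for H3K4me3 and H3K27ac, the summit. H3K27me3 lists hold broad peaks. The lowest deposited −log10 q of the siControl+TGFβ lists of H3K4me3 and H3K27ac was 1.30, so these lists are looser than the q threshold stated in the methods of the study. The 6 input samples were not analysed here. The depth is unknown from such lists, so no counting interval is given.

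Groups were taken from the labels. With Python 3.11.15, NumPy 2.4.6 and pyfaidx 0.9.0.4, peaks were intersected with the TSS of the canonical transcript (19881 of 20162 coding genes, otherwise the 5′ end of the gene) in GENCODE release 44 mapped to GRCh37, within 1000 bp and by at least 1 bp. For distal regions the peaks of both libraries were joined where they met, a peak of each being required, and the joined region had to lie over 5000 bp from every annotated TSS. GC content could not be computed at 18 TSSs. Sequences came from the GRCh37 reference. Shares per library, or per replicate number for combinations, were compared by exact two-sided permutation tests with Benjamini-Hochberg adjustment. The scripts were tested on simulated data.

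Members and gene lists were chosen with earlier results of these data known. Genes named are members of these lists, the 5 genes of a combination with the lowest mean rank of covered length within 5000 bp, and the 3 widest regions of a distal class. Some members of these sets are not reported here. HOX, SOX, T-box, forkhead, histone and zinc finger genes are given in the plot of gene lists. Alternatives were a peak in either library, each library left out, windows of 500 and 2000 bp, at least 200 bp of overlap, −log10 q of at least 3, the 50% strongest peaks, lists cut to equal length, distance from coding TSSs only and the replicate block.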

Additional observations from a re-analysis of the deposited data

How the results depend on the processing

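The class with all 3 marks moved most, to 673 TSSs with a peak in either library, 56 within 500 bp, 421 within 2 kb, 96 with at least 200 bp, 37 with the 50% strongest peaks, and 263 to 537 with 1 library left out. H3K4me3 only moved to 543 with either library, 468 without TSSs marked in 1 library, 3246 with the 50% strongest peaks and 641 to 1318 with 1 library left out. Bivalent TSSs fell to 1274 with the 50% strongest peaks. The lists labelled siPHF13+TGFβ gave 3663 TSSs with H3K4me3 and H3K27ac, 6 with all 3 marks, 8342 with H3K4me3 only and 1002 with H3K27me3 only. With 1 library left out, distal regions numbered 70047 to 73072 for H3K27me3 alone, 3690 to 6727 for H3K27ac without H3K4me3 and 4496 to 6483 for H3K27ac with it. Measured from coding TSSs only, they numbered 5881 for H3K27ac with H3K4me3, 7361 for H3K4me3 without H3K27ac and 2772 with H3K27me3. With the 50% strongest peaks these were 811, 1352 and 840, and H3K27me3 alone 13538. Without regions near long assembly gaps, a choice made after seeing the data, 1059 regions with H3K27me3 remained. Against siControl, the bivalent difference turned to 1.01 points with the 50% strongest peaks, 0.439 with lists of equal length and 0.278 within 500 bp, and ranged from -1.63 to 0.900 with 1 library left out (0.136 without siControl+TGFβ replicate 1). That of H3K27me3 only turned to 0.330 with lists of equal length and ranged from -2.77 to 1.76, and that of no mark from -3.82 to 2.66. The difference for H3K4me3 with H3K27ac was 2.21 points with lists of equal length, 8.42 with the 50% strongest peaks and 2.08 to 8.38 with 1 library left out, and that for H3K4me3 only -2.31, -7.48 and -8.74 to -0.642. The cause was not tested. Replicate 1 minus 2 of the covered length had opposite signs in siControl and siControl+TGFβ for H3K4me3 and H3K27ac and the same sign for H3K27me3. The libraries were therefore taken to share only a number. With the replicate number as a block the difference for H3K4me3 with H3K27ac was 5.23 points (exact permutation p = 0.5, the smallest possible). Without the block the smallest possible exact permutation p was 0.33, so the block could not change a call.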
